A study of Homo sapiens with 6 samples.

Results

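Long intergenic noncoding RNAs that carry a LINC symbol were examined in HCC827 cells treated with an inhibitor of EGFR. Of the 1229 LINC rows in the expression table, 180 had a mean of at least 10 over the 6 libraries, in the unit of signal defined below, and these detected LINC RNAs were selected by that mean alone. They made up 1.27% of the 14215 genes that reached the same mean. HCC827 is an established lung adenocarcinoma cell line with an activating deletion in EGFR. The DMSO group (3 libraries) received the vehicle and the erlotinib group (3 libraries) received 1 μM erlotinib, a small molecule that blocks the EGFR kinase, both for 24 h. The 6 libraries come from 1 cell line, and the labels do not say whether they were separate cultures, while the study says in general terms that its experiments were done independently more than once. The p-values measure the spread between these libraries, which may be technical if they were not.

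LINC RNAs are transcribed like mRNAs by RNA polymerase II, and many are capped, spliced and polyadenylated, but they have no long open reading frame. They are usually less abundant and more restricted to particular cell types than mRNAs. Several act in the nucleus on the gene next to them, others act in the cytoplasm, and for most no role is known. The LINC symbol is given to a noncoding gene that lies between coding genes until a function gives it another name. The libraries were made from RNA enriched with oligo(dT) beads, a step that does not select RNAs without a poly(A) tail.

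Signal is the number of reads on a gene divided by 1 size factor for its library. The reads on genes numbered 20858083, 24641819 and 21172884 with DMSO and 21944007, 20760204 and 21678395 with erlotinib, and the size factors ran from 0.882 to 1.08. A count of 3 reads, taken here as the most that a count of 0 allows, was worth 2.77 to 3.40 signal, and covers counting error only. Replicate libraries differed by more than sampling noise, with a chi-square per degree of freedom of 2.94 to 5.35 over the detected LINC RNAs, and each library was counted as its own replicate. DMSO library 2 stood apart, as over all genes this value was 24.3 and 15.2 in its pairs, 7.96 between DMSO libraries 1 and 3, and 4.13 to 6.08 between erlotinib libraries.

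The cells carried the markers of their label. EPCAM, an epithelial adhesion protein, averaged 9852 signal with DMSO and 9485 with erlotinib, and the cadherin CDH1 had 27824 and 30609. The other 5 epithelial markers were present at high levels but lower with erlotinib: the keratin KRT7 had 123690 and 79897, KRT8 45622 and 25636, KRT18 18755 and 7876, KRT19 47070 and 35767, and EGFR itself 79645 and 45538. The markers of other cell types were summed over 9 genes, which gave 2876, 2874 and 3263 signal in the DMSO libraries and 3521, 3787 and 3691 in the erlotinib libraries. CD68, a lysosomal protein that is not restricted to macrophages, was the most abundant of them at 2898 and 3394. The leukocyte phosphatase PTPRC, the T cell receptor subunit CD3E and the stromal genes COL3A1 and DCN stayed at or below 5.62 in every library, and DCN was at 0 in all 3 DMSO libraries. COL1A1 had 77.7 in DMSO and 216 in erlotinib, and the endothelial genes VWF, CDH5 and PECAM1 had 3.94 and 27.4, 3.78 and 10.1, and 15.7 and 10.4. The part of these markers in the results was not tested.

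Most LINC loci were silent or nearly so. No read was found in any library for 757 of the 1229 rows, and 1049 rows were under the mean of 10. Just under it were LINC01234 (mean signal 9.32), LINC00260 (9.73) and LINC01534 (9.85), and just inside it were LINC00461 (10.3), LINC01424 (10.3) and LINC02595 (10.6). The selected LINC RNAs were themselves low, with a median of 46.1 signal against 572 for all tested genes. A mean under 100 was found for 123 of them and a mean of at least 1000 for 6. The mean of 10 was reached in both groups by 137 LINC RNAs, only with erlotinib by 33 (18.3%) and only with DMSO by 10 (5.56%), while 4.41% and 1.17% of all tested genes reached it in that single group. A LINC RNA that was kept through 1 group had to differ between the groups, and 22 of the 33 were called higher and 6 of the 10 lower in the test described below.

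The word intergenic was checked against the annotation. RefSeq (GRCh38.p14) gave a position to 178 of the 180, on 23 chromosomes, and now files 174 as long noncoding RNAs. The other entries are LINC00514, LINC00672 and LINC00634, which are now listed as the protein-coding genes GREP1, LASP1NB and SMIM45, and LINC00643, now the transcribed pseudogene SERTAD4BP. The span of 30 LINC RNAs overlapped another tested gene, and 90 of the 172 with a GENCODE 44 model shared at least 1 exon base with another annotated gene. The strand that was counted is not stated in the sources used here, so reads of such genes and of an overlapping or antisense partner cannot be told apart. The 148 LINC RNAs whose span met no other tested gene included 76 (51.4%) that were higher and 19 (12.8%) that were lower with erlotinib, and the 82 whose exons shared no base included 42 higher (51.2%) and 13 lower (15.9%), where all 180 had 50.6% and 11.7% and all tested genes 35.3% and 35.4%. Over the 172 LINC RNAs with a GENCODE model the exons together measured 160 to 33198 bases with a median of 3829, and 24 had a single exon block.

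Detected LINC RNAs took a larger share of all reads with erlotinib. Of all gene reads they held 0.180%, 0.168% and 0.174% with DMSO and 0.233%, 0.234% and 0.231% with erlotinib. The groups did not overlap, with means of 0.174 ± 0.00575% and 0.233 ± 0.00111% (SD, n = 3 each). A single RNA, LINC02067, made up 46.2%, 42.1% and 44.1% of these reads in DMSO and 33.7%, 34.6% and 33.6% in erlotinib. Without LINC02067 the shares were 0.0972 ± 0.000394% and 0.153 ± 0.000752%. The number of LINC rows with at least 1 read was 290, 296 and 296 in the DMSO libraries and 338, 336 and 348 in the erlotinib libraries. Of the detected LINC RNAs, 142, 148 and 149 had at least 10 reads in DMSO against 171, 168 and 169 in erlotinib. That count leans on the filter, which kept 33 LINC RNAs only through erlotinib and 10 only through DMSO. Neither count was made over all genes, so they are not shown to be particular to LINC RNAs. In bulk RNA, a change in the cells that express a gene and a change in the RNA per cell cannot be told apart.

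**Figure D1:**
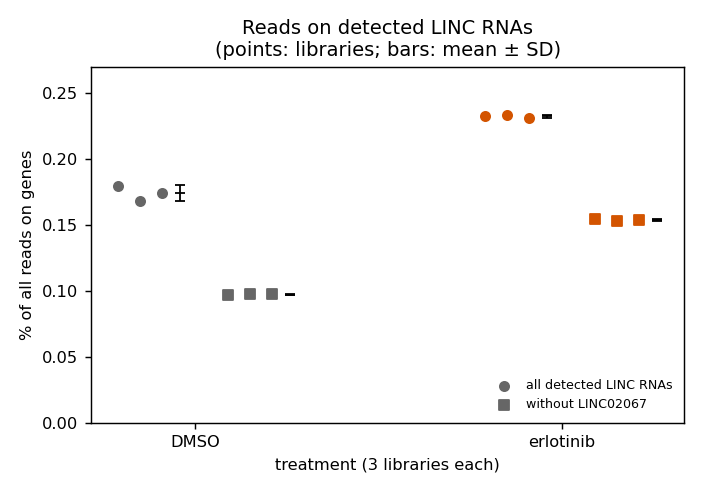
Percent of all reads on genes that fell on the detected LINC RNAs in each of the 3 DMSO and 3 erlotinib libraries, with all 180 (circles) and without LINC02067 (squares). The bars give mean ± SD, and in both sets the erlotinib libraries lie above the DMSO libraries, at 0.233% against 0.174% and at 0.153% against 0.0972%.

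With erlotinib, 91 of the 180 detected LINC RNAs (50.6%) were higher, 21 (11.7%) were lower and 68 were neither, at an adjusted p under 0.05 (limma on log2(signal + 1), Benjamini-Hochberg over all 14215 tested genes, two-sided). Among all tested genes 35.3% were higher and 35.4% lower. Without DMSO library 2, 89 LINC RNAs were higher and 22 lower. The median log2 fold change, erlotinib minus DMSO, was 0.79 for the LINC RNAs and 0.02 for all tested genes. The LINC RNAs ranged from -2.83 to 4.79 with a middle span from -0.01 to 1.51, and 134 of them lay above 0. Rises of at least 1 log2 unit were called for 67 and falls of at least 1 for 15, where 2416 and 1540 of all 14215 tested genes were so called. The signal of the erlotinib libraries lay wholly above that of DMSO for 92 LINC RNAs and wholly below it for 23, where the same held for 36.7% and 36.9% of all tested genes. Of the called LINC RNAs, 87 of the 91 higher and 20 of the 21 lower had no overlap between the groups.

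**Figure D2:**
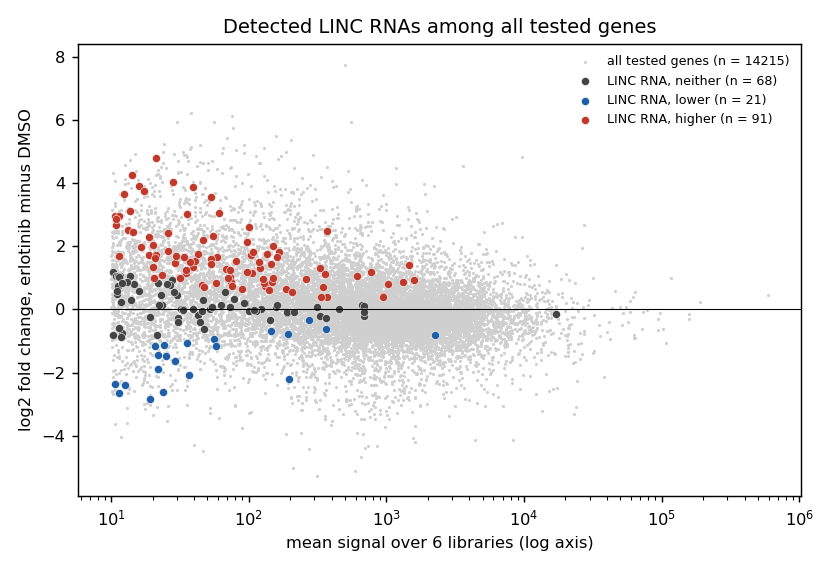
Log2 fold change (erlotinib minus DMSO) against the mean signal over 6 libraries on a log axis, with all 14215 tested genes in grey and the 180 detected LINC RNAs coloured by call (91 higher, 21 lower, 68 neither). Most LINC RNAs sit at the left, under a mean of 100, and above the line at 0.

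The level of expression moved with this balance, so the LINC RNAs were set beside all genes of the same range of signal. Among the 123 LINC RNAs with a mean from 10 to under 100, 58 were higher (47.2%) and 15 lower (12.2%), close to the 41.2% and 11.4% of all 3147 tested genes in that range. The median log2 fold changes there were 0.85 and 0.62. Among the 51 LINC RNAs with a mean from 100 to under 1000, 29 were higher (56.9%) and 5 lower (9.80%), where all 6054 tested genes of that range gave 37.8% and 35.0%. The medians there were 0.43 and 0.04. Other long noncoding RNAs were not counted in this range alone, so whether they share this gap is not shown. In this range the LINC RNAs were still the less abundant, with a median signal of 190 against 427, where the lower range had 27.4 and 31.6, and the gaps of the ranges were not tested against each other. Of the 6 with a mean of at least 1000, 4 were higher and 1 was lower, where all 5014 tested genes of that range gave 28.5% higher and 50.9% lower.

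A like balance was present in antisense and other long noncoding RNAs over all levels of signal, and in coding genes at low signal. Antisense RNAs by symbol numbered 353, of which 154 rose (43.6%) and 44 fell (12.5%), and their median log2 fold change was 0.56. RefSeq files 786 tested genes without a LINC symbol as long noncoding RNAs, and the antisense RNAs were not removed from this class. These 786 other long noncoding RNAs gave 43.5% higher and 14.2% lower, and a median of 0.58. The 535 of them with a mean from 10 to under 100 gave 41.3% higher and 10.1% lower, and a median of 0.68. The 12638 protein-coding genes gave 35.0% higher and 37.7% lower over all levels, but the 2090 of them with a mean from 10 to under 100 gave 44.4% higher and 11.6% lower, with a median of 0.68. The host genes of small nucleolar RNAs (SNHG), small RNAs that guide the modification of ribosomal RNA, ran the other way, as 8 of 16 were lower and 3 higher, and the 16 microRNA host genes had 4 lower and 4 higher. With a mean of at least 10 required in each group, 69 of 137 LINC RNAs (50.4%) were higher and 15 (10.9%) lower, against 33.8% and 36.7% of 13422 tested genes.

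**Figure D3:**
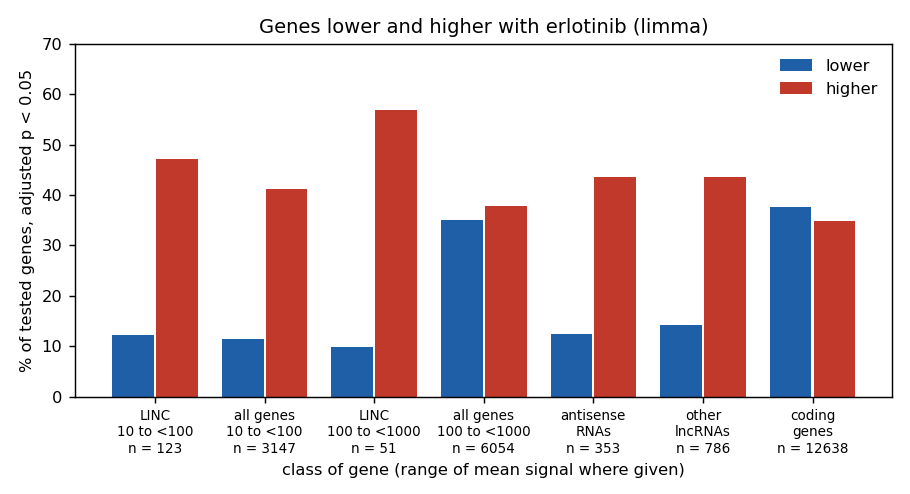
Percent of tested genes that were lower (blue) or higher (red) with erlotinib at an adjusted p under 0.05 in limma, by class of gene, with n under each pair of bars. Antisense RNAs were not removed from the other lncRNAs, and the bars without a range cover all levels of signal. Between a mean of 100 and 1000 the LINC RNAs had 9.80% lower and 56.9% higher while all genes had 35.0% and 37.8%, and between 10 and 100 both had far fewer lower than higher.

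The promoters of a few of the RNAs described below are shown first as context: LINC00460 and LINC00941 have the highest signal of the 10 largest falls, LINC00324 and LINC01006 are among the 10 largest rises, and LINC01578 lies beside a coding gene that moved with it. Each sequence runs from 250 bases before to 50 bases after the annotated start, from RefSeq (GRCh38.p14), which held a promoter for 138 of the 180. Capitals mark the AP-1 letters TGANTCA in LINC00460, the TEAD letters GGAATG in LINC00324, and the SP/KLF letters GGGGCGGGG or their reverse complement in LINC01006 and LINC01578, and LINC00941 held none of the 9 motifs searched. LINC01006 and LINC01578 each have another annotated promoter, with no match, which is not printed.
LINC00460, chr13:106376314-106376613, plus strand: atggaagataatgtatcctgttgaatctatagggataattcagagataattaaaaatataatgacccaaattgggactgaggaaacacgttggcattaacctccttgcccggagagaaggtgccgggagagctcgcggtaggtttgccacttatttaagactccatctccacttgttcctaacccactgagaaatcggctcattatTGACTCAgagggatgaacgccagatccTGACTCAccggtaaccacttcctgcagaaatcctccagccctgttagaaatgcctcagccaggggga
LINC00941, chr12:30795431-30795730, plus strand: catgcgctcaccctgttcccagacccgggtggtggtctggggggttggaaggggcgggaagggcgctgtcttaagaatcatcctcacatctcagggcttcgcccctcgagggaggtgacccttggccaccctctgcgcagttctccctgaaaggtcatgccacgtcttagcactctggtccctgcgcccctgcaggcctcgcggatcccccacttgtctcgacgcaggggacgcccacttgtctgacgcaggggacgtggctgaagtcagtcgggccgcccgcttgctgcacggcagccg
LINC00324, chr17:8223994-8224293, minus strand: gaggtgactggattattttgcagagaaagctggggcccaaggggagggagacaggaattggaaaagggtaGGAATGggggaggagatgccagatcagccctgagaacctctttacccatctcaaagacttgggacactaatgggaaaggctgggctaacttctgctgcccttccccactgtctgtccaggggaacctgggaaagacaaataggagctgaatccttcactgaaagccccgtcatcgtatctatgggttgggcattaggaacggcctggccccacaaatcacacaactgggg
LINC01006, chr7:156640486-156640785, minus strand: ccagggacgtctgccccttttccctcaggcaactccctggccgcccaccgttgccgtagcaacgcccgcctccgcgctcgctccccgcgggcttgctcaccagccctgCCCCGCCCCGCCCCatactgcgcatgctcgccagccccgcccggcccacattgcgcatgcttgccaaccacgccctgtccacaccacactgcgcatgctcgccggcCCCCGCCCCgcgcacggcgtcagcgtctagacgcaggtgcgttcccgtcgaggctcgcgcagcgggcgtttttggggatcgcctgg
LINC01578, chr15:92882593-92882892, plus strand: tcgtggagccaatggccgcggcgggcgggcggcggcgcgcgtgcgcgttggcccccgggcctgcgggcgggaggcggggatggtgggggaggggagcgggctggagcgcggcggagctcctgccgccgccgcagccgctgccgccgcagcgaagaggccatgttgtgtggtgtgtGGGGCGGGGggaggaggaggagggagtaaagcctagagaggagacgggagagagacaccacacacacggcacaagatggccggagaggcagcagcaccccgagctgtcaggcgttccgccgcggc

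Motifs were searched on both strands of these windows and compared with 27305 genes that have a promoter in the same table. A match is a description of letters and not of a bound site. The AP-1 letters, read by the FOS and JUN factors, were in the promoters of 9 of 138 LINC RNAs (6.52%) and of 9.37% of all genes. The other shares were 1.45% and 2.25% for the CRE letters TGACGTCA, 4.35% and 4.95% for the ETS letters CCGGAAGT, 3.62% and 4.19% for the FOXO letters TGTTTAC, and 15.9% and 16.7% for the TEAD letters. The E2F letters TTTCCCGC were in 3.62% and 1.98%, the E-box CACGTG in 10.9% and 8.78%, the TATA box TATAAA in 14.5% and 13.99%, and the SP/KLF letters in 13.8% and 18.45%. None of the 9 motifs was present for 58 LINC RNAs (42.0%), the same share as among all genes. LINC00460 had the AP-1 letters at 44 and at 17 bases before its start, and 5 of the 138 LINC RNAs (3.62%) had at least 2 such matches, against 0.626% of all genes. For the other motifs the shares with at least 2 matches were 5.80% and 5.80% for SP/KLF, 3.62% and 2.95% for the TATA box, 0.725% and 1.70% for TEAD, 0.725% and 0.461% for ETS, and 0 LINC RNAs for CRE, FOXO, E2F and the E-box. The 5 with repeated AP-1 letters, named after their values were seen, were LINC00460, which was lower, LINC00339 and LINC00346, which were higher at log2 fold changes of 0.98 and 0.43, and LINC00513 and LINC01271, which passed in neither direction at -0.06 and 0.76. The SP/KLF letters were in 14 of the 68 promoters of LINC RNAs called higher (20.6%), in 5 of the 54 of those called neither (9.26%) and in 0 of the 16 of those called lower, and the share among all genes was 18.45%. The CRE, ETS and FOXO letters were also in 0 of these 16. For those called lower and higher, the shares were 12.5% and 7.35% for AP-1, 18.75% and 14.7% for the TATA box, and 6.25% and 2.94% for E2F. They were 12.5% and 13.2% for TEAD and 6.25% and 11.8% for the E-box. The median GC content of the promoters of LINC RNAs called higher, neither and lower was 60.7%, 61.5% and 48.5%, and its part in these shares was not tested.

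Among the falls, the LINC RNAs with most reads gave the tightest values. LINC00941, which has been linked to invasion in several carcinomas, had a signal of 285, 311 and 369 in the DMSO libraries and 58.1, 71.3 and 80.5 in the erlotinib libraries. The groups were far apart, with means of 322 ± 43.2 and 70.0 ± 11.2 (SD, n = 3) and a log2 fold change of -2.19 (SE 0.18, adjusted p = 6.7e-10). It lies at chr12:30795681-30802711 by RefSeq. In GENCODE 92.3% of its exon bases are shared with an unnamed gene on the same strand (100% with all other genes together), so that the row can hold reads of other genes. The GENCODE model of LINC00941 covers 675% of its RefSeq span, so these shares may not hold for the exons that were counted. LINC00460 (chr13:106376564-106378595), linked to epithelial-mesenchymal transition, had 56.7, 47.4 and 77.1 in DMSO and 12.0, 12.9 and 14.98 in erlotinib. Every erlotinib library was below every DMSO library, as the choice of rows requires, and the log2 fold change was -2.08 (SE 0.36, adjusted p = 2.6e-05).

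The largest fall at a pseudocount of 1 was that of LINC01510, now named COMETT, at chr7:116563594-116688027 on the minus strand. Its RefSeq span overlaps MET, the gene of the HGF receptor. Its signal was 44.2, 29.7 and 27.8 in DMSO and 4.61, 5.94 and 1.87 in erlotinib, a log2 fold change of -2.83 (SE 0.55, adjusted p = 1.2e-04), which was -1.63 with a pseudocount of 10, where LINC00941 was the larger at -2.05. MET itself was lower too, from a mean of 34553 to 20251 (log2 fold change -0.77, adjusted p = 9.2e-10). No exon base of the GENCODE model of LINC01510 lies in the body of another gene, and the part of MET reads in the values of this row was not tested. LINC01910 fell from 52.2, 42.7 and 27.8 to 8.31, 1.98 and 9.36, with a log2 fold change of -2.62 (adjusted p = 2.0e-04). Both LINC01510 and LINC01910 were kept only through DMSO and had to differ. Over the libraries of DMSO and then of erlotinib, LINC01510 had 97 and 13 reads and LINC01910 had 118 and 21.

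The other large falls rested on few reads as well. LINC00707, linked to tumour cell growth, had 58 reads over the 3 DMSO libraries and 10 over the 3 erlotinib libraries, with signals of 20.4, 26.9 and 11.8 and then 5.54, 0 and 3.74 (log2 fold change -2.65, SE 0.78, adjusted p = 0.0047). LINC01792 had 19.3, 15.8 and 26.8 and then 8.31, 5.94 and 0 (-2.40, adjusted p = 0.0086), and without erlotinib library 6 the log2 fold change was -1.40 (adjusted p = 0.043). LINC02595 had 13.6, 28.8 and 12.8 and then 3.69, 0.990 and 3.74 (-2.36, adjusted p = 0.0052). The groups lay apart in each of these RNAs, as the choice of rows requires, and each was kept only through DMSO. Their SEs ran from 0.70 to 0.78, wider than that of LINC00941. LINC02065, LINC01111 and LINC01843 completed the 10 falls, with log2 fold changes of -1.89, -1.65 and -1.43, and LINC01111 had -1.10 without erlotinib library 4. LINC02065 was likewise kept only through DMSO. In GENCODE, 100% of the exon bases of LINC00707 and of LINC01792 and 87.4% of those of LINC01111 lie in the body of another gene. These 3 rows can therefore hold reads of other genes, and the part of such reads was not tested. With a pseudocount of 10 the values were -1.17 for LINC00707, -1.08 for LINC01792 and -1.11 for LINC02595, and those of all 10 falls lay between -2.05 and -0.96. A tested coding gene lay within 100 kb of 6 of the 10 falls, and MET (-0.77), SOCS6 (-0.37), AOX1 (-1.73), SREK1 (-0.21) and JADE2 (-0.58) were lower too, while CAPRIN2 beside LINC00941 was neither (-0.18).

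The 10 rises with the largest log2 fold change at a pseudocount of 1 started from few reads in DMSO. They had from 2 (LINC01484 and LINC00475) to 37 (LINC01239) over the 3 DMSO libraries. Of the 10, 9 had a DMSO mean under 10, so they were kept only through erlotinib and had to differ, and 6 of the 10 falls were likewise kept only through DMSO. With a pseudocount of 10 LINC00324 came first of these 10 rises (2.56). LINC01484 (chr5:173707599-173746209) had a signal of 0, 1.86 and 0 in the DMSO libraries and 58.1, 44.5 and 21.5 in the erlotinib libraries, that is 2 reads against 131. The log2 fold change of 4.79 (SE 0.74, adjusted p = 7.8e-06) depends on the pseudocount of 1, and was 2.21 with a pseudocount of 10. The ratio of the pooled reads, corrected for size factors, was 59.9 with a 95% counting interval from 16.3 to 500. LINC00475 had 0, 0 and 2.14 in DMSO and 36.9, 20.8 and 25.3 in erlotinib, with a pooled ratio of 40.3 (10.8 to 338). Its GENCODE model is a transcribed pseudogene of 213 exon bases, all shared with an unnamed gene on the same strand, so that the row can hold reads of either. That model covers only 1.17% of the RefSeq span of LINC00475, so the share may not hold for the exons that were counted. LINC02593 had 2.27, 0 and 1.07 and then 31.4, 21.8 and 17.8, with a ratio of 22.9 (7.53 to 113). In all 10 rises the values were smaller with a pseudocount of 10, from 1.45 to 2.56.

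LINC01348, LINC00950, LINC00324 and LINC01239 had more reads than these over the erlotinib libraries, from 167 to 342. LINC01348 had 5.67, 0 and 4.28 in DMSO and 48.9, 56.4 and 53.4 in erlotinib (log2 fold change 4.04, SE 0.64, adjusted p = 1.0e-05). LINC00950, which had no RefSeq position, had 0, 14 and 7 reads in DMSO and 73, 68 and 86 reads in erlotinib (3.88, adjusted p = 3.1e-05). LINC00324 (chr17:8220630-8224043), whose promoter is printed above, had 17.0, 6.50 and 3.21 and then 97.8, 84.1 and 109.5 (3.56, SE 0.44, adjusted p = 4.1e-07). For each of these the lowest erlotinib library lay far above the highest DMSO library. LINC01239 had 7.94, 9.29 and 21.4 and then 130, 85.1 and 108 (3.07, adjusted p = 2.1e-07), while LINC00942 (35.1, 18.8 and 34.6 in erlotinib, 3.91) and LINC01655 (28.6, 14.8 and 30.9, 3.11) spread more widely. Of the nearest tested coding genes of the 10 rises, SAMD11 beside LINC02593 (2.60 and 32.1 signal, log2 fold change 3.56) and CTC1 beside LINC00324 (0.63) were higher, while BOD1 (-0.14), SPTLC1 (-0.16), TOMM20 (-0.10), ERC1 (-0.10), DUSP10 (0.20) and RNF32 (0.04) were neither.

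**Figure D4:**
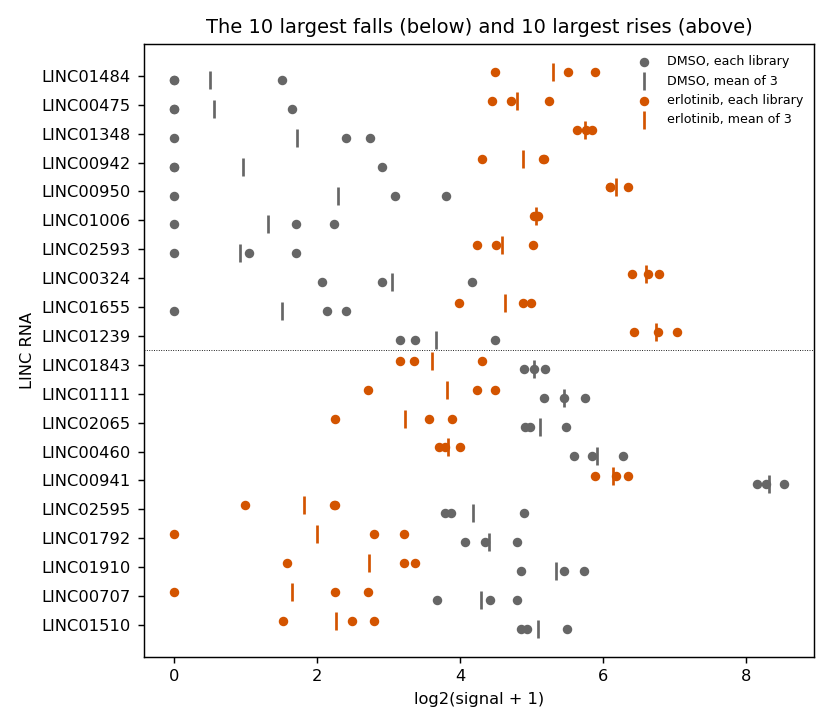
Values of log2(signal + 1) in each library for the 10 largest rises (above the dotted line) and the 10 largest falls (below it) among LINC RNAs called with no overlap between groups, with DMSO in grey, erlotinib in orange and vertical ticks at the group means. The libraries of the groups do not overlap in any row, as the choice of rows requires, and LINC00941 is the most abundant of the falls.

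Abundance was compared per kb of GENCODE exon, since a long transcript collects more reads. LINC02067, an RNA with no coding gene tested within 100 kb, had the highest level that could be compared, 5952 signal per kb. Its signal was 19663, 16230 and 17434 in DMSO and 15872, 16613 and 15793 in erlotinib, and the groups overlapped (log2 fold change -0.14, SE 0.07, adjusted p = 0.082). The log2 fold change was 0.040 (adjusted p = 0.58) with libraries scaled to their totals, and without DMSO library 2 it was -0.20 and passed as lower (adjusted p = 0.00193), in a range of -0.20 to -0.064 over the libraries left out. LINC02582 followed at 901 signal per kb and fell from 2833, 2995 and 2773 to 1686, 1633 and 1551 (-0.82, SE 0.07, adjusted p = 2.0e-09). It was the only one of the 6 LINC RNAs with a mean of at least 1000 that was called lower. LINC00997 had 258 signal per kb and a log2 fold change of -0.07 (adjusted p = 0.53), which became 0.11 with scaling to total reads. LINC00674 ranked first by arithmetic at 9900 signal per kb, but its GENCODE model holds only 160 bases, of which 97.5% are shared with another gene, so the level was not used, and its signal rose from 1092 to 2076.

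LINC01578, now CHASERR, restrains the neighbouring gene CHD2 in cis, where CHD2 is a chromatin remodeller. Its level was 203 signal per kb, with signals of 892, 960 and 941 in the DMSO libraries and 1790, 1719 and 1575 in the erlotinib libraries, and a log2 fold change of 0.86 (SE 0.08, adjusted p = 6.8e-09). CHD2, which lies 1.58 kb away by RefSeq, rose with it from a mean of 1796 to 3592 (1.00, adjusted p = 4.0e-10). The GENCODE model of LINC01578, used for the level per kb, covers 504% of its RefSeq span. Of its exon bases 67.3% lie in the body of another gene and 7.27% are shared, so that the row can hold reads of other genes. Both genes rose, and whether their changes differ in size was not tested.

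The LINC RNAs linked to cancer by earlier work were taken as a list of 17, of which 15 were in the table and 10 were detected. Of these 10, LINC00707, LINC00941 and LINC00460 were lower and LINC00673 and LINC01503 were higher, and the median log2 fold change was -0.03. All tested genes had 35.4% lower, 35.3% higher and a median of 0.02, and all detected LINC RNAs 11.7% lower, 50.6% higher and a median of 0.79. LINC00673 had 731, 775 and 878 in DMSO and 2085, 2066 and 2188 in erlotinib (1.41, SE 0.08, adjusted p = 4.5e-12), and it is the largest rise among the 6 most abundant LINC RNAs. LINC01503 had 29.5, 30.7 and 48.2 and then 56.3, 63.4 and 57.1, and its adjusted p of 0.032 became 0.0513 with DESeq2 and 0.0961 without erlotinib library 5. The 5 that passed in neither direction were LINC00665 (-0.21), LINC00857 (-0.21), LINC00662 (0.14), LINC01116 (0.16) and LINC00511 (0.33). LINC00473, a target of CREB in lung tumours, had no read in any library, and LINC01133, LINC01234, LINC00520 and LINC01559 were under the mean of 10.

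Other lists held few detected members. Of 8 LINC loci known to encode small proteins, 2 were in the table under these symbols and 1 was detected, LINC00467, whose log2 fold change was -0.10 (adjusted p = 0.60) and turned to 0.080 with scaling to total reads. LINC00261, a partner of the endoderm factor FOXA2, had a mean of 0.642 signal, and LINC00657 and LINC01021, of the lists on genome stability and p53, were not in the table under these symbols.

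The coding genes beside the LINC RNAs were compared with them in direction. A tested coding gene was found within 100 kb of 144 of the 178 LINC RNAs with a position, and in 67 of these pairs both genes were called. The direction was the same in 43 pairs (64.2%), with 33 both higher and 10 both lower, and opposite in 24, of which 23 had the LINC RNA higher and the neighbour lower. For tested genes that are not LINC RNAs the same direction was found in 56.7% of 6600 such pairs, and for other long noncoding RNAs in 64.3%, the same share as for the LINC RNAs. Within 10 kb the LINC RNAs gave 21 of 30 (70.0%), the other genes 58.3% and the other long noncoding RNAs 65.9%. Across the 144 pairs Pearson's r of the log2 fold changes was 0.24 and Spearman's rho 0.23, and within 10 kb they were 0.44 and 0.36 over 65 pairs, where the points share libraries and are not independent. The r of other long noncoding RNAs was 0.29 within 100 kb and 0.32 within 10 kb, that of other genes 0.15 and 0.18, and that of the 79 LINC pairs beyond 10 kb 0.09. LINC RNAs called lower had a called neighbour in 11 cases, and 10 of these neighbours were lower, while among other genes called lower 58.85% of the called neighbours were lower, and among other long noncoding RNAs called lower 56 were lower and 24 higher. The 56 called neighbours of LINC RNAs called higher were higher in 33 (58.9%) and lower in 23, and for other genes called higher 54.5% were higher. These differences were not tested.

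**Figure D5:**
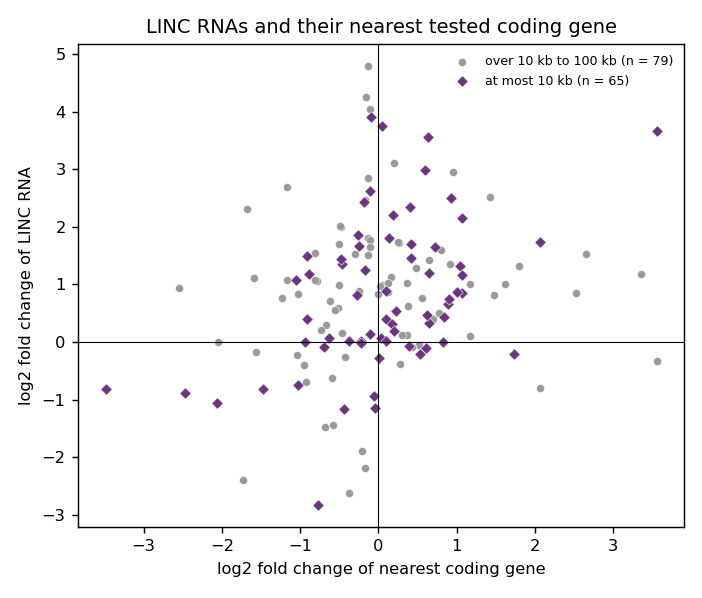
Log2 fold change (erlotinib minus DMSO) of 144 LINC RNAs against that of their nearest tested coding gene, with pairs at most 10 kb apart as purple diamonds (n = 65) and pairs over 10 kb to 100 kb apart as grey circles (n = 79). Points fall in all 4 quadrants, the fewest where the LINC RNA is lower and the neighbour higher.

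A start in GENCODE within 1000 bases of another gene's start on the opposite strand was found for 20 LINC RNAs. The order of the starts was not checked, so the genes of such a pair can run apart or overlap at their starts. Of these 14 were higher (70.0%), 0 were lower and 6 were neither, where all detected LINC RNAs had 50.6% higher and 11.7% lower and all tested genes 35.3% and 35.4%. Among those called higher, LINC01635, LINC01058, LINC00637 and LINC01006 had DMSO means of 5.56, 3.19, 1.64 and 1.99. They were kept only through erlotinib and had to differ. A partner was tested for 18 of the 20, and in the 10 pairs with both called the direction was the same in 5 and opposite in 5. As 0 of the 20 were lower, the LINC RNA had to be higher in all 10, and the split is that of the partners. The pairs below were picked after their values were seen. LINC01124 rose from a mean of 35.1 to 159 (2.15, adjusted p = 4.6e-08), and its partner SP5, a factor of the Sp/KLF family, from 20.2 to 42.1 (1.06, adjusted p = 0.038). LINC00894 rose from 27.8 to 90.5 (1.67), while CXorf40B, whose start lies 87 bases away, fell from 615 to 519 (-0.24, adjusted p = 0.043).

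LINC01006, one of the 10 largest rises, is also among the pairs with near starts on opposite strands. Its signal was 2.27, 3.71 and 0 in the DMSO libraries and 33.2, 32.7 and 31.8 in the erlotinib libraries, a log2 fold change of 3.75 (SE 0.69, adjusted p = 5.6e-05, and 1.84 with a pseudocount of 10). RNF32, a RING finger gene that starts 373 bases away on the other strand, had a mean of 178 in DMSO and 180 in erlotinib (0.04, adjusted p = 0.84). The RefSeq span of LINC01006 overlaps RNF32, and 0.383% of the exon bases of LINC01006 in GENCODE are shared with RNF32. The promoter printed for LINC01006 holds the SP/KLF letters at 142, 137 and 36 bases before the start, the first and second overlapping, and its other annotated promoter, at chr7:156603146-156603445, holds none of the 9 motifs.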

How the data were processed

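RNA-seq was performed on HCC827 cells after 24 h in DMSO or in 1 μM erlotinib (3 libraries each). Per the labels and the methods of the study, mRNA was enriched with oligo(dT) beads, paired reads were mapped to GRCh38 with Bowtie2 2.3.4, which does not split reads across introns, and uniquely mapped reads were counted with featureCounts 1.6.3. The study tested with DESeq2 1.18.1. The strand counted is not given in the sources used here. The deposited values are a signal, which the authors made from reads divided by 1 size factor per library: dividing by the step of each library gave whole reads for 100% of values, within 0.01 reads. The totals of 20760204 to 24641819 reads set the precision, and a count of 3 reads was worth 2.77 to 3.40 signal. All 6 columns were used (0 left out), and 475 rows without a symbol were kept.

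The 14215 genes whose mean signal reached 10 were tested with limma 3.58.1 (variance trend, log2(signal + 1), which understates the change of low genes), two-sided, at a Benjamini-Hochberg adjusted p under 0.05. Alternatives were TMM factors, scaling to total reads, edgeR 4.0.16 and DESeq2 1.42.0 on the recovered reads, pseudocounts of 0.1 and 10, other filters, a threshold of 0.01 and each library left out. Counting intervals of pooled reads are exact. Positions and promoters came from RefSeq (GRCh38.p14) by Entrez identifier, and exons from GENCODE 44. The nearest coding gene was taken between gene bodies.

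Named were the 10 largest rises and 10 largest falls with no overlap between groups, the 5 highest per kb, the 3 rows on either side of the mean of 10, the listed LINC RNAs and their neighbours. The members and lists were chosen with earlier results of these data known. Genes named outside the rule are said to be so, or were named by their annotation. The software was R 4.3.3, Python 3.11.15, pandas 2.3.3, scipy 1.17.1 and matplotlib 3.10.9.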

Additional observations from a re-analysis of the deposited data

How the results depend on the processing

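The counts of 91 higher and 21 lower LINC RNAs were within 1.5 times of these values in each alternative except a filter at a mean of 50, which left 86 LINC RNAs with 51 higher and 8 lower. By edgeR the counts were 90 and 21, by DESeq2 88 and 21, and with an adjusted p under 0.01 they were 81 and 18. Without any single library they were 83 to 90 higher and 18 to 22 lower. The median log2 fold change of 0.79 was 0.97 with scaling to total reads, which moved the median of all tested genes to 0.19, 0.82 and 0.57 with pseudocounts of 0.1 and 10, 0.62 with a mean of at least 10 in each group, 0.68 with a mean of at least 50, and 0.70 to 0.79 without single libraries. The share of reads was 0.0972% in DMSO and 0.153% in erlotinib without LINC02067, and 0.176% and 0.236% over all LINC rows. Neighbour pairs in the same direction numbered 21 within 10 kb. Of 522 values of 35 named LINC RNAs under the alternatives, 505 kept direction and call. The direction turned, never in a called value, for LINC00467 (0.080), LINC00997 (0.11) and LINC02067 (0.040) with scaling to total reads, for LINC01116 without DMSO library 1 (-0.13, in a range of -0.13 to 0.34 without single libraries) and for LINC00467 without DMSO library 2 (0.016, in a range of -0.18 to 0.016). LINC01503 lost its call by DESeq2 (adjusted p = 0.0513), with no filter (0.0689) and without any 1 library other than DMSO 3 (0.0623 to 0.0961). LINC00461 gained a call by edgeR (0.0474 and 0.0481) and without erlotinib library 5 (0.0391), and LINC00665 (0.00367) and LINC02067 (0.00193) without DMSO library 2. The cause was not tested. No paired analysis was possible because the columns of the erlotinib libraries carry no number that matches the labels. A low count is a limit for the 123 of the 180 with a mean under 100, whose fold changes depend on the pseudocount. Groups of 3 are too small to screen a single value for an outlier.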
